A study of Mus musculus with 24 samples.

Results

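The major histocompatibility complex (MHC) class II genes H2-Aa, H2-Ab1, H2-Eb1, H2-DMa, H2-DMb1, Cd74 and Ciita were followed by name through RNA sequencing of mouse fat. They are 7 of 30699 genes in the deposited tables, and all 7 were found there in both tissues. C57BL/6 mice were given antimiR-224, antimiR-452 or scramblemiR, and both white fat (WAT, white adipose tissue) and brown fat (BAT) were sequenced, with 4 libraries in each of the 6 groups. AntimiR-224 and antimiR-452 are antisense oligonucleotides built with locked nucleic acid, a modified nucleotide that binds its complement tightly, and are directed against miR-224 and miR-452. ScramblemiR is such an oligonucleotide of scrambled sequence and served as the control, so no group was left without an oligonucleotide. Every mouse got 25 mg/kg under the skin, given 2 times, and the frozen tissue was taken whole, with no sorting of cells. The series title links both microRNAs to estrogen and to extracellular vesicles, but all libraries here come from fat. The labels give no age, sex, fat depot or time of collection, and do not state that each library came from its own mouse, so the p-values measure the spread between libraries.

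Class II molecules are pairs of an alpha and a beta chain that show peptides from engulfed or self proteins to CD4 T cells. H2-Aa and H2-Ab1 encode the chains of the I-A molecule, and H2-Eb1 encodes the beta chain of I-E. The C57BL/6 strain carries a defective alpha chain gene for I-E, so that its H2-Eb1 product is not shown at the cell surface. Cd74 encodes the invariant chain, which fills the groove of new class II molecules and brings them to endosomes. H2-DMa and H2-DMb1 encode the chains of H2-M, which exchanges the last fragment of the invariant chain for other peptides. Ciita encodes the class II transactivator, a coactivator that does not bind DNA itself but joins the RFX, CREB and NF-Y factors on the promoters of the other members. B cells, dendritic cells and macrophages make class II molecules all the time, while many other cell types, adipocytes included, can be induced to do so by interferon gamma. In whole fat, fewer cells of a type and less RNA per cell cannot be told apart.

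The sequences shown first are the microRNAs that the inhibitors are directed against and the promoters of the members in which the boxes read by the class II factors were found, from RefSeq on the mouse build GRCm38.p6. In the mature microRNAs the capitals mark the seed, bases 2 to 8. The gene of miR-224-5p lies at chrX:72261085-72261105 and that of miR-452-5p at chrX:72262271-72262292, both on the minus strand.
mmu-miR-224-5p: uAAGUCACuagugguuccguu
mmu-miR-452-5p: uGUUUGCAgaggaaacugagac
Their seeds differ. A match to the miR-224-5p seed was found in the 3′ untranslated region of 1 of the 7 members, H2-DMa, and in 12.3% of 21669 genes. No member held a match to the miR-452-5p seed, which 9.38% of these genes held. For each gene the longest such region of any coding transcript was searched. That of H2-DMa has 1865 bases, more than the 1658 bases of its whole principal transcript, so the match may lie outside the principal transcript. Such a match is a description of letters and not a shown target site.

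The promoter windows below are the 150 bases before the RefSeq start of H2-Aa (chr17:34287824-34287973, minus strand), H2-Eb1 (chr17:34305717-34305866, plus strand) and H2-DMb1 (chr17:34153041-34153190, plus strand). They are printed on the gene's own strand, and the capitals mark the core of the X box, searched as GNAACT, and the Y box, searched as TGATTGG.
H2-Aa: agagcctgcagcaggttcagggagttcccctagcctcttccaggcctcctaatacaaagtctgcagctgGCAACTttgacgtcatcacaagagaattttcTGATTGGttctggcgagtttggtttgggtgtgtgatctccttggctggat
H2-Eb1: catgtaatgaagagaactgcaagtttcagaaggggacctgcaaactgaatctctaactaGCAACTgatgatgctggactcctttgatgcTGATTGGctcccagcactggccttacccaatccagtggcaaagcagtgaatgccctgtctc
H2-DMb1: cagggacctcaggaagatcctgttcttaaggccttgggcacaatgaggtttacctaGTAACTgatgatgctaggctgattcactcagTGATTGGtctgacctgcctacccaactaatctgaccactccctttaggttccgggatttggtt
The X box core began 81 bases before the start of H2-Aa, 91 before that of H2-Eb1 and 94 before that of H2-DMb1. The Y box began 50, 61 and 63 bases before these starts, in the same order of genes. The windows of H2-Aa and H2-Eb1 each hold a further GNAACT on the opposite strand, left in lower case. On either strand GNAACT is common, in 23.6% of 32851 promoter windows of this length, and TGATTGG is in 5.71%. The X box core followed 20 to 40 bases later by the Y box on the gene's strand was found in 17 windows, 0.0517% of all, among them those of H2-Aa, H2-Eb1, H2-DMb1 and the related beta chain gene H2-Eb2. Both windows listed for H2-DMa (chr17:34122682-34122831 and chr17:34125368-34125517) held neither motif. Other starts within the span of H2-DMa were not searched, so this does not show that the gene lacks the boxes. The windows of H2-Ob, H2-Oa and H2-DMb2 held the Y box. The motifs do not overlap each other in the windows shown. H2-Ab1 and Ciita are named only.

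On the GENCODE M21 annotation of GRCm38, 5 of the members lie close together on chromosome 17. H2-DMa spans 17:34119541-34139101 and H2-DMb1 spans 17:34153072-34160230, both on the plus strand. H2-Ab1 (17:34257689-34269419, plus), H2-Aa (17:34282744-34287823, minus) and H2-Eb1 (17:34305867-34316674, plus) follow. Cd74 lies at 18:60803848-60812652 and Ciita at 16:10480059-10528418, both on the plus strand. H2-DMb1 has a near-identical neighbour, H2-DMb2, and reads may have been split between these paralogs in counting, so the levels of both are uncertain.

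Values are normalized counts, that is reads divided by a size factor of the library, and libraries are numbered 1 to 4 by falling size factor within each group. In genes whose reads were recovered, the reads per library ran from 14634779 to 17742099 in WAT antimiR-224 and from 14829545 to 18275678 in WAT antimiR-452. They ran from 22175430 to 27935908 in WAT scramblemiR. In BAT they ran from 9021884 to 13373328 with antimiR-224, from 9965959 to 14293615 with antimiR-452 and from 16960694 to 20255777 with scramblemiR. These totals lack 105, 107, 129 and 160 genes in WAT antimiR-224, WAT antimiR-452, BAT antimiR-224 and BAT antimiR-452, and 0 genes in the scramblemiR groups. None of 6 adipocyte genes entered the fit in any inhibitor comparison. The totals are thus not depths to compare between inhibitor and scramblemiR groups. The tissue labels held, since the leptin gene Lep was higher by 5.85 on the log2 scale in WAT scramblemiR than in BAT scramblemiR, and the uncoupling protein gene Ucp1 had a log2 difference of −13.3. Whether the inhibitors lowered their microRNAs was not analysed here. Several libraries stood apart in RNA of other cells. The summed normalized count of 12 B cell genes was 3180 in WAT antimiR-452 library 2 and 2953 in WAT scramblemiR library 2, against 169 to 511 in the other WAT libraries of that comparison. It was 415 in BAT antimiR-224 library 1, against 14 to 72 in the other libraries of that comparison. Summed spermatid genes reached 5150 in WAT antimiR-224 library 3 and 17882 in WAT scramblemiR library 2. Skeletal muscle genes were high in BAT antimiR-224 library 1, in BAT scramblemiR libraries 1 and 2 and in WAT antimiR-452 library 3. Epithelial genes summed to 12030 and 16807 in WAT antimiR-224 libraries 1 and 2 and to 8147, 12925 and 10148 in WAT antimiR-452 libraries 1 to 3, against 358 to 2012 in WAT scramblemiR. Erythroid genes summed to 2900 to 7364 in WAT antimiR-452, against 11754 to 55350 in WAT scramblemiR, and varied as widely in the other groups. Results without the libraries rich in B cell, spermatid or muscle genes are given where they differ, and fits without those rich in epithelial or erythroid genes were not run.

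The members differed steeply in level, in a similar order in both scramblemiR groups. Per kilobase of transcript and 1000000 reads in genes, Cd74 stood at 357 ± 107 in WAT scramblemiR and 80.2 ± 38.7 in BAT scramblemiR (SD, n = 4 each). H2-Aa stood at 275 ± 85.3 in WAT scramblemiR and 54.4 ± 22.8 in BAT scramblemiR. The I-A beta chain gene H2-Ab1 was at 164 ± 51.1 and 33.5 ± 15.5 in WAT scramblemiR and BAT scramblemiR, close to H2-Eb1 at 149 ± 49.999 and 35.0 ± 15.9 in the same groups. Between H2-Ab1 and H2-Eb1 the spread was larger than the gap. The chains of the peptide editor were far lower. H2-DMa was at 12.7 ± 3.46 in WAT scramblemiR and 2.69 ± 0.92 in BAT scramblemiR, and H2-DMb1 at 9.85 ± 3.39 and 2.31 ± 0.99 in these groups. Ciita was the least abundant member, at 1.46 ± 0.75 in WAT scramblemiR and 0.39 ± 0.27 in BAT scramblemiR.

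**Figure D1:**
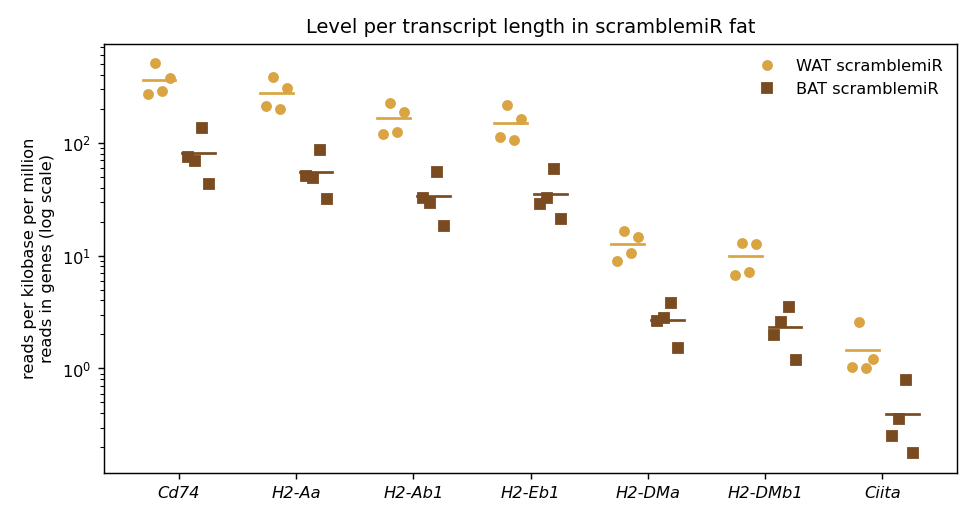
Level per transcript length of the 7 members in the 4 WAT scramblemiR libraries (circles) and the 4 BAT scramblemiR libraries (squares), as reads per kilobase per 1000000 reads in genes on a log axis; horizontal lines are means. Cd74 and H2-Aa are highest and Ciita lowest in both tissues, with means of 357 and 1.46 for Cd74 and Ciita in WAT scramblemiR.

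Within a library the proportions of the members varied by pair, least over all 24 libraries for Cd74 with H2-Aa and for the chains of I-A. The per-length ratio of H2-Aa to H2-Ab1, the chains of one molecule, had a median of 1.596 over the 24 libraries, with 1.21 the lowest and 2.08 the highest, and a coefficient of variation of 11.2%. The invariant chain gene Cd74 was 1.1 to 1.6 times H2-Aa, with a median of 1.40 and a coefficient of variation of 9.62%. H2-Eb1 was 0.695 to 1.16 times H2-Ab1, with a median of 0.873 over the 12 WAT libraries and 1.03 over the 12 BAT libraries. Over the 24 libraries the proportion of the chaperone and coactivator genes varied more. H2-DMb1 was 0.450 to 0.936 times H2-DMa, with a coefficient of variation of 16.3%. For this pair the larger variation was in BAT, at 22.5% over 12 libraries. Over the 12 WAT libraries it was 7.64%, below that of H2-Aa over H2-Ab1 there. Ciita was 0.00193 to 0.00913 times H2-Aa, with a coefficient of variation of 29.3%. These ratios share the library and its depth in numerator and denominator, and H2-DMb1 and Ciita rest on the fewest reads.

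WAT held more RNA of all 7 members than BAT in the scramblemiR groups, by 2.76-fold for Ciita to 3.60-fold for H2-Aa. H2-Aa had normalized counts of 4385, 6562, 4124 and 6471 in the WAT scramblemiR libraries 1 to 4, against 1429, 1431, 2350 and 945 in the BAT scramblemiR libraries. The groups did not overlap, and the lowest WAT library stood above the highest BAT library. The log2 difference, WAT scramblemiR over BAT scramblemiR on log2(normalized count + 1), was 1.85 with a standard error of 0.28 and an adjusted p of 0.000615 by limma with Benjamini-Hochberg adjustment over 16818 genes.

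The other chains of the presenting molecules behaved alike. H2-Ab1 had 2653, 4149, 2736 and 4278 in WAT scramblemiR, against 965, 909, 1613 and 579 in BAT scramblemiR (log2 difference 1.82, standard error 0.30, limma adjusted p 0.00107). H2-Eb1 had 3444, 5426, 3237 and 5123 in WAT scramblemiR, against 1187, 1408, 2335 and 927 in BAT scramblemiR (1.6, standard error 0.29, limma adjusted p 0.00178). Neither gene's groups overlapped, and BAT library 3 was the highest and BAT library 4 the lowest of their group for both. Cd74, which escorts these chains, had 6868, 10776, 7367 and 9916 in WAT scramblemiR, against 2610, 2522, 4585 and 1595 in BAT scramblemiR (1.70, standard error 0.30, limma adjusted p 0.00155).

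The genes of H2-M, which loads peptides, were higher in WAT by a similar factor. H2-DMa had 273, 414, 322 and 459 in WAT scramblemiR, against 109, 120, 151 and 66.5 in BAT scramblemiR (1.73, standard error 0.27, limma adjusted p 0.0008). H2-DMb1 had 171, 278, 185 and 332 in WAT scramblemiR, against 68.3, 93.4, 120 and 44.3 in BAT scramblemiR (1.59, standard error 0.34, limma adjusted p 0.00408). Neither gene's groups overlapped. Ciita had 113, 236, 112 and 136 in WAT scramblemiR, against 37.3, 55.0, 114 and 28.1 in BAT scramblemiR. Here the groups overlapped, because BAT library 3 stood above the 2 lowest WAT libraries. Its log2 difference of 1.47 with a standard error of 0.43 had a limma adjusted p of 0.0206.

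Of the 7 members, 7 passed in the direction of WAT, where 22.1% of all 16818 genes tested did, and 42.0% passed in either direction (50.4% had an unadjusted p under 0.05). For 6 of 7 members every WAT scramblemiR library lay above every BAT scramblemiR library, which 21.4% of all genes tested also showed, while 19.9% showed the reverse. The labels do not say whether the same mice gave both tissues. In the file headers 2 of the 4 library numbers of antimiR-224, 3 of those of antimiR-452 and 2 of those of scramblemiR recur in both tissues, so some mice may have given both, and the fit, which takes all libraries as independent, carries this limit. An exact two-sided permutation test of each gene gave p = 0.0286, the smallest that 4 against 4 libraries allow, for these 6, and p = 0.0857 for Ciita. The median log2 difference was 1.70 over the members and 0.08 over all genes. The call for Ciita was lost, with limma adjusted p-values of 0.0522, 0.0516 and 0.0568, when WAT scramblemiR library 2, BAT scramblemiR library 1 or BAT scramblemiR library 4 was left out in turn, and without both muscle-rich BAT libraries (0.111). The other 6 members kept their calls in each of these fits. Scaling by total reads moved the median of all genes to 0.61, and the members' differences to between 1.98 and 2.38, values that include this shift of all genes.

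Genes that act beside the members moved unevenly between the tissues. Of 20 other genes of the class II pathway, 18 were tested, 7 were higher and 2 lower in WAT scramblemiR, where 22.1% of all genes were higher, with a median log2 difference of 0.61. H2-Ob, a chain of the inhibitor of H2-M, was higher by 2.5, and H2-DMb2 by 2.40. Marchf1, a ligase that removes class II molecules from the surface, was higher by 2.12, Ctss, the protease cathepsin S that trims the invariant chain, by 1.90, and Cd86, a costimulator of T cells, by 1.66. The protease Ctsl was higher by 1.02. Rfxank of the RFX complex had 196, 199, 205 and 289 in WAT scramblemiR, against 385, 505, 661 and 755 in BAT scramblemiR, a log2 difference of −1.34. The NF-Y subunit Nfyc was also lower, with a difference of −1.34, while Rfx5 at 0.58, Rfxap at −0.09, Nfya at −0.03 and Nfyb at 0.14 did not pass. No subunit of RFX or NF-Y passed in the direction of WAT.

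The class I pathway, which shows peptides from inside the cell, was higher in WAT scramblemiR for 10 of 13 genes with a smaller median of 0.72. B2m, the light chain of class I, was higher by 1.40, H2-D1 by 1.35, H2-K1 by 1.13 and the class I transactivator Nlrc5 by 1.19. Of 16 genes tested on the interferon gamma axis, 5 were higher in WAT scramblemiR, with a median of 0.34 over the 16, a share to be read against the 22.1% of all genes higher there. They were Socs1 at 2.17, Cxcl9 at 1.43, Irf8 at 1.06, Gbp2 at 1.05 and Ifngr1 at 0.73. Ifng itself was at 0 in all 4 BAT scramblemiR libraries.

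Markers of the cell types that make class II molecules moved the same way, where 22.1% of all 16818 genes tested were higher in WAT scramblemiR. Of 16 macrophage genes 14 were higher in WAT scramblemiR, with a median log2 difference of 2.0, and their summed normalized count ran from 17521 to 22755 in WAT scramblemiR and from 3561 to 7236 in BAT scramblemiR. Of 12 dendritic cell genes 8 were higher (median 1.91), with sums of 2154 to 3692 in WAT scramblemiR and 982 to 1697 in BAT scramblemiR. Sums of this list rest mostly on Zbtb46, Dpp4, Clec10a and Mgl2, with means of 739, 658, 427 and 277 over the 24 libraries scaled together. They follow these genes more than the list as a whole and are not a measure of dendritic cells. Of 11 B cell genes tested 7 were higher (median 3.30), with sums of 124 to 2130 in WAT scramblemiR and 23.7 to 97.1 in BAT scramblemiR. Of 7 T cell genes tested, 1 was higher. Mesothelial genes were higher in 6 of 6 (median 8.05), and of 5 erythroid genes, with a median of 3.02, none passed. No macrophage, dendritic cell or B cell gene was at 0 in every library of either group. The part of these cells in the members' difference was not tested.

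**Figure D2:**
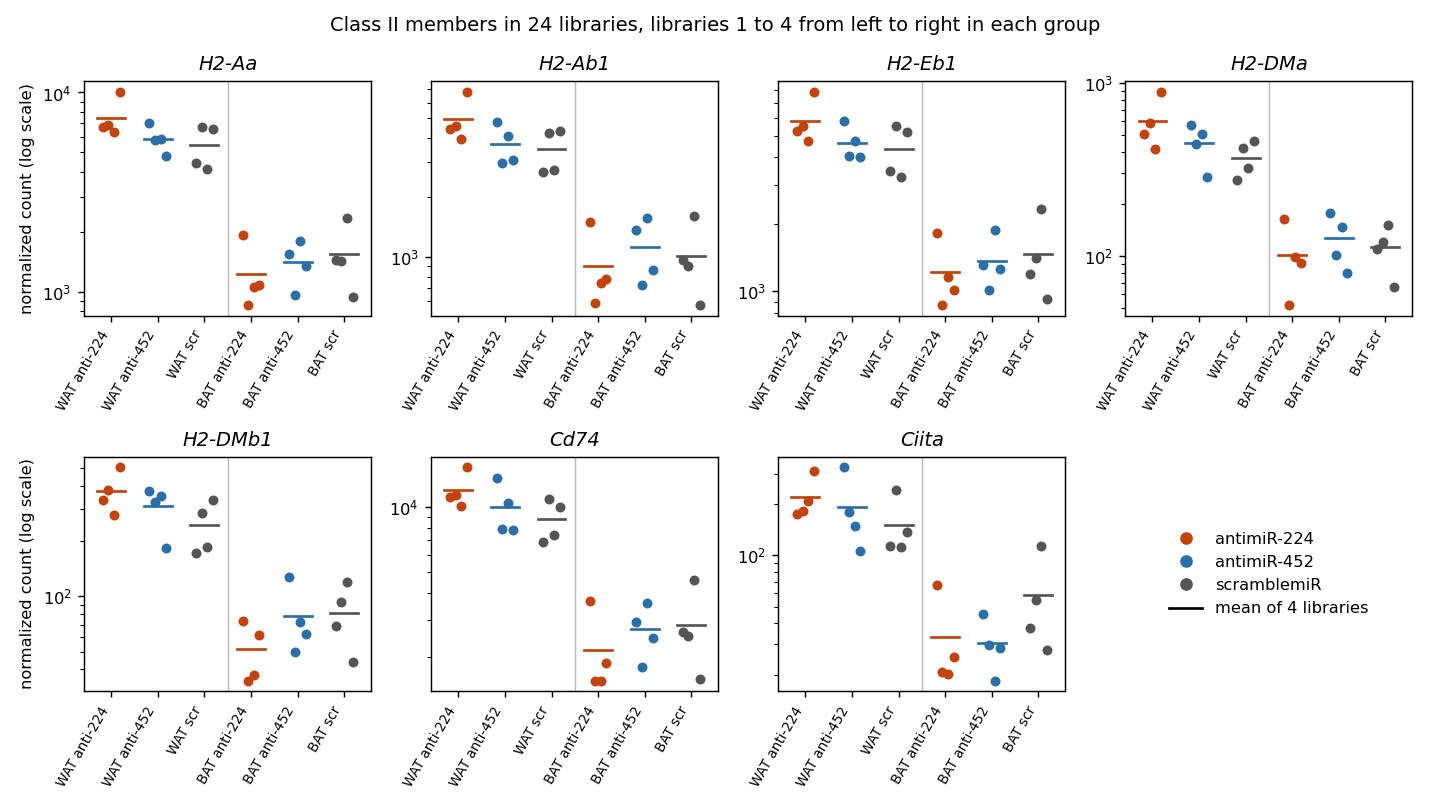
Normalized counts of the 7 members in the 24 libraries on a log axis, after scaling all 24 libraries together; points are libraries 1 to 4 from left to right and horizontal lines are means of 4 libraries. For every member the 3 WAT groups lie above the 3 BAT groups in mean, and antimiR-224 has the highest mean in WAT.

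On a scale set over all 24 libraries, the order of group means was the same for every member in WAT. H2-Aa averaged 7487 ± 1750 in WAT antimiR-224, 5862 ± 919 in WAT antimiR-452 and 5445 ± 1348 in WAT scramblemiR, with 1230 ± 475 in BAT antimiR-224, 1410 ± 351 in BAT antimiR-452 and 1539 ± 588 in BAT scramblemiR (SD, n = 4 each). Ciita averaged 220 ± 64.7 in WAT antimiR-224, 191 ± 96.5 in WAT antimiR-452 and 151 ± 60.7 in WAT scramblemiR, with 33.3 ± 22.7, 30.6 ± 11.2 and 58.6 ± 38.7 in BAT antimiR-224, BAT antimiR-452 and BAT scramblemiR. Within a tissue, neighbouring groups overlapped for every member, so the order within a tissue did not exceed the spread between libraries.

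With antimiR-224 in WAT, all 7 members had a higher mean than with scramblemiR, by 0.43 to 0.66 on the log2 scale, and none passed the test. H2-Aa had normalized counts of 9040, 9234, 8472 and 13395 in WAT antimiR-224, against 5933, 9031, 5542 and 8762 in WAT scramblemiR. Library 4 of the antimiR-224 group stood far above the rest, and library 3 lay below 2 scramblemiR libraries. The log2 difference was 0.47 with a standard error of 0.22 (limma adjusted p 0.797), and an exact two-sided permutation test of this gene alone gave p = 0.143. H2-Ab1 had 6005, 6202, 5265 and 9033 in WAT antimiR-224, against 3590, 5710, 3678 and 5792 in WAT scramblemiR, a difference of 0.50 with a standard error of 0.23. H2-Eb1 had 7086, 7472, 6316 and 10435 in WAT antimiR-224, against 4660, 7468, 4351 and 6936 in WAT scramblemiR, a difference of 0.43 with a standard error of 0.23. For each chain, 2 scramblemiR libraries were low and 2 came near the antimiR-224 libraries.

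The escort and loading genes followed the same libraries. Cd74 had 15036, 15454, 13513 and 20316 in WAT antimiR-224, against 9292, 14830, 9901 and 13426 in WAT scramblemiR, a difference of 0.45 with a standard error of 0.20 and an exact two-sided permutation p of 0.0571. H2-DMa had 689, 791, 556 and 1184 in WAT antimiR-224, against 369, 570, 433 and 621 in WAT scramblemiR, a difference of 0.66 with a standard error of 0.25. Its unadjusted limma p of 0.0282 became 0.797 after adjustment. H2-DMb1 had 452, 513, 370 and 669 in WAT antimiR-224, against 231, 382, 249 and 449 in WAT scramblemiR, a difference of 0.63 with a standard error of 0.26. Ciita had 238, 246, 277 and 418 in WAT antimiR-224, against 153, 325, 150 and 184 in WAT scramblemiR, a difference of 0.57 with a standard error of 0.29, and 1 scramblemiR library stood above 3 of the antimiR-224 libraries.

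None of the 7 members was called, where 0.0% of the 17798 genes tested by limma were called and 6.23% had an unadjusted p under 0.05. In the authors' deposited table a single gene passed, 0.00343% of 29128, and the 7 members had log2 ratios of 0.42 to 0.69, each with an adjusted p of 1. All 7 members had a difference above 0, as did 52.8% of all genes, and the median was 0.50 over the members and 0.02 over all genes. Every member's groups overlapped, while 1.79% of genes had every antimiR-224 library above every scramblemiR library and 1.74% every one below. Library 4 was the highest of the antimiR-224 group for 7 of 7 members. Without it the differences ran from 0.29 to 0.48. Without the spermatid-rich libraries (antimiR-224 library 3 and scramblemiR library 2) they ran from 0.64 to 0.90, with limma adjusted p-values of 0.264 to 0.297. Neither fit called a member. AntimiR-224 library 3 was the lowest of its group for 6 of 7 members, and scramblemiR library 2 the highest of its group for 4 of 7. The rise in the differences without these libraries was thus largely fixed in advance. AntimiR-224 library 4, with spermatid genes 2.95 above the WAT mean in log2, was kept in that fit.

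Genes of the interferon gamma axis and of the class I pathway, named after their values were seen, were high in the same antimiR-224 library. Iigp1, an interferon-induced GTPase, had 425, 488, 834 and 7065 in WAT antimiR-224, against 503, 522, 512 and 789 in WAT scramblemiR. Gbp2, another such GTPase, had 1159, 1178, 2099 and 8875 in WAT antimiR-224, against 1827, 1272, 1391 and 1830 in WAT scramblemiR. Library 4 thus stood several-fold above the others, and the difference of group means in log2 was 0.88 for Iigp1 and 0.53 for Gbp2, neither past the test. Tap1, which pumps peptides to class I molecules, had 859, 793, 1107 and 3668 in WAT antimiR-224, against 827, 1055, 968 and 1169 in WAT scramblemiR. Over 10 class I genes the sum was 62571 in library 4 and 32774 to 35611 in the other antimiR-224 libraries, against 31261 to 37795 in WAT scramblemiR. H2-K1, H2-D1 and B2m, which encode the class I molecule, are not among these 10 of 13 genes, as their reads were not recovered. The same 10 genes stand for class I in both WAT inhibitor comparisons and in values over all 24 libraries. Ifng was near 0 throughout, with at most 1.09 in WAT antimiR-224 and at most 6.89 in WAT scramblemiR, and it was at 0 in library 4.

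Over whole lists none of the genes beside the members passed. Of 19 other class II pathway genes tested 17 had a difference above 0 (median 0.24), as did 10 of 10 class I genes (0.27), 13 of 16 interferon gamma axis genes (0.25) and 15 of 16 macrophage genes (0.40). Cathepsin S (Ctss) had 1917, 1621, 1642 and 3287 in WAT antimiR-224, against 1127, 1702, 1196 and 1301 in WAT scramblemiR. Macrophage genes summed to 28768, 28867, 37079 and 50325 in WAT antimiR-224, against 23723 to 31317 in WAT scramblemiR. B cell genes summed to 482 to 1177 in WAT antimiR-224, against 168 to 2932 in WAT scramblemiR. The dendritic cell list summed to 4283 to 6953 in WAT antimiR-224, against 2916 to 4962 in WAT scramblemiR. Its sums again rest mostly on Zbtb46, Dpp4, Clec10a and Mgl2. T cell genes had a difference below 0 in 8 of 9. Epithelial genes had a difference above 0 in 7 of 7 (median 2.01), spermatid genes in 5 of 5 (2.31) and mesothelial genes in 6 of 6 (0.69), while erythroid genes had one below 0 in 5 of 5 (−1.16). The part of macrophages and of these other cells in the members' values was not tested.

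**Figure D3:**
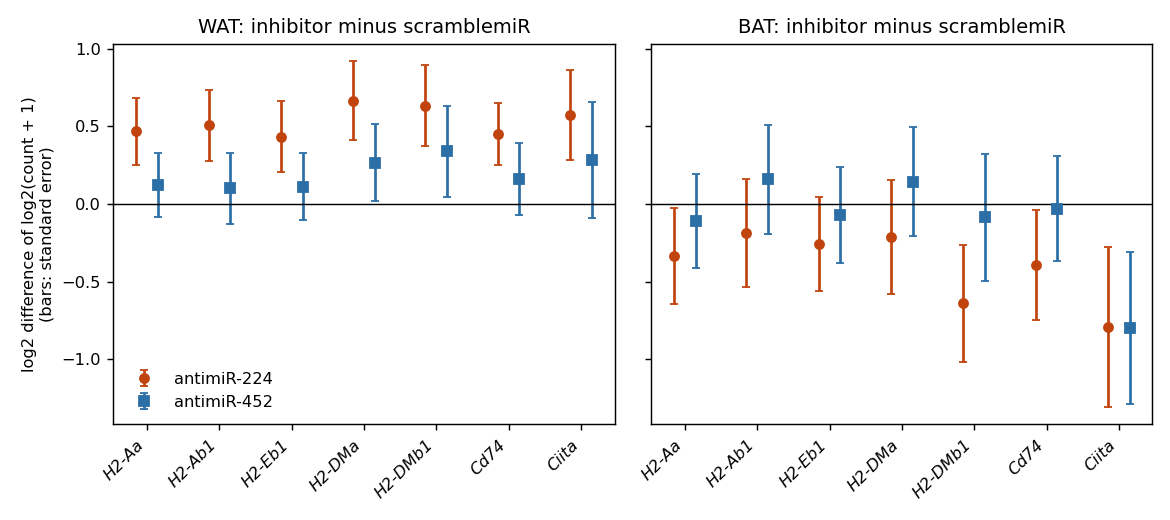
Log2 difference between inhibitor and scramblemiR for each member in WAT (left panel) and BAT (right panel), with antimiR-224 as circles and antimiR-452 as squares; bars are standard errors from limma. AntimiR-224 lies above 0 for all members in WAT, from 0.43 to 0.66, and below 0 for all in BAT, from −0.79 to −0.19, and no member passed the test.

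With antimiR-452 in WAT the members lay nearer to scramblemiR, with differences of 0.10 to 0.34 and none called, where 0.0% of 17717 genes were called and 4.45% had an unadjusted p under 0.05. H2-Aa had 9410, 7779, 7928 and 6439 in WAT antimiR-452, against 5937, 9094, 5585 and 8840 in WAT scramblemiR (difference 0.12, standard error 0.21). Cd74 had 18290, 10699, 14199 and 10538 in WAT antimiR-452, against 9299, 14935, 9976 and 13546 in WAT scramblemiR (0.16, standard error 0.23). Ciita had 439, 243, 203 and 142 in WAT antimiR-452, against 153, 327, 151 and 185 in WAT scramblemiR (0.28, standard error 0.37). Library 1 was the highest of the antimiR-452 group for 7 of 7 members, and the groups overlapped for each. Over all genes 0.999% had every antimiR-452 library above every scramblemiR library and 0.666% every one below.

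Of the members, H2-DMb1 of the peptide editor had the largest difference in this comparison. It had 504, 440, 476 and 246 in WAT antimiR-452, against 231, 385, 251 and 453 in WAT scramblemiR (0.34, standard error 0.29). H2-DMa had 761, 601, 689 and 383 in WAT antimiR-452, against 369, 574, 436 and 627 in WAT scramblemiR (0.26, standard error 0.25). For both, library 4 was the lowest of the antimiR-452 group. H2-Ab1 and H2-Eb1 differed by 0.10 and 0.11. The adjusted p by limma was 0.998 for all 7 members, exact two-sided permutation p-values ran from 0.257 to 0.657, and all 7 differences lay above 0, as did 44.8% of all genes. Leaving out single libraries turned the sign of H2-Ab1, H2-Eb1, Cd74 and Ciita, with lowest values of −0.02, −0.02, −0.00079 and −0.02. Without library 4 of the antimiR-452 group, 543 genes passed and no member did, with the lowest adjusted p at 0.471 for H2-DMb1.

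Class II genes with a role in B cells had their highest library elsewhere than the members in WAT antimiR-452, but not in every group. H2-Ob, which with H2-Oa forms the inhibitor of H2-M in B cells, had 103, 345, 60.2 and 41.1 in WAT antimiR-452, against 94.8, 294, 51.5 and 55.6 in WAT scramblemiR. H2-Oa had 16.8, 140, 21.1 and 6.66 in WAT antimiR-452, against 20.4, 46.4, 7.35 and 18.5 in WAT scramblemiR. Library 2 was the highest in both groups for both genes, and it was also the library richest in the summed B cell genes. The 7 members did not have their highest value in library 2 of the antimiR-452 group, where H2-Ab1 was at its lowest, 4027, while library 2 of WAT scramblemiR was the highest of its group for 4 of 7 members. Without both of these libraries the members' differences ran from 0.24 to 0.52, at limma adjusted p-values of 0.765 to 0.776. Of 19 other class II pathway genes 18 had a difference above 0 (median 0.16), and of 10 class I genes 3 did (median −0.08). Macrophage genes summed to 41599, 16613, 24989 and 30084 in WAT antimiR-452, against 23936 to 31537 in WAT scramblemiR, so library 1 was the highest for these genes as for the members. Epithelial genes had a difference above 0 in 7 of 7 (median 3.10) and erythroid genes one below 0 in 5 of 5 (median −2.64). Skeletal muscle genes had one above 0 in 5 of 5 (median 1.63). The part of these cells in the members' values was not tested.

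In BAT, antimiR-224 gave differences below 0 for all 7 members, from −0.19 to −0.79, and none passed, where 0.0% of 14408 genes were called and 5.98% had an unadjusted p under 0.05. H2-Aa had 1349, 662, 766 and 802 in BAT antimiR-224, against 1064, 1081, 1743 and 695 in BAT scramblemiR (difference −0.34, standard error 0.31). Cd74 had 2578, 1204, 1135 and 1401 in BAT antimiR-224, against 1943, 1906, 3400 and 1173 in BAT scramblemiR (−0.40, standard error 0.36). Library 1 of the antimiR-224 group was the highest of its group for every member, and scramblemiR library 3 was the highest and library 4 the lowest of their group for every member. H2-Ab1 had 1059, 453, 539 and 574 in BAT antimiR-224, against 718, 687, 1196 and 426 in BAT scramblemiR (−0.19, standard error 0.35). H2-Eb1 had 1282, 670, 840 and 750 in BAT antimiR-224, against 884, 1064, 1732 and 682 in BAT scramblemiR (−0.26, standard error 0.30).

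The least abundant members had the largest differences. Ciita had 47.1, 15.9, 14.7 and 18.7 in BAT antimiR-224, against 27.7, 41.6, 84.7 and 20.7 in BAT scramblemiR (−0.79, standard error 0.51). H2-DMb1 had 51.1, 26.7, 27.2 and 45.5 in BAT antimiR-224, against 50.8, 70.6, 88.9 and 32.6 in BAT scramblemiR (−0.64, standard error 0.38). H2-DMa, at 114, 40.1, 71.5 and 67.6 in BAT antimiR-224, against 81.3, 90.9, 112 and 48.9 in BAT scramblemiR, differed by −0.22. The groups overlapped for every member, where 2.7% of all genes had every antimiR-224 library above every scramblemiR library and 1.24% every one below. The adjusted p-values by limma ran from 0.732 to 0.868, and exact two-sided permutation p-values from 0.171 to 0.629. Of all genes 42.0% had a difference above 0 here, with a median of −0.07, against −0.34 over the members. Leaving out a single library turned the sign of H2-Ab1 (to 0.06 at most) and of H2-DMa (to 0.04 at most).

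Library 1 of BAT antimiR-224 was also the library rich in B cell and muscle genes. There Ms4a1, the B cell gene for CD20, had 27.1, against at most 4.18 in the other antimiR-224 libraries and at most 5.29 in BAT scramblemiR. Without it the members' differences ran from −0.45 to −1.16, with limma adjusted p-values of 0.518 to 0.617. Library 1 was the highest antimiR-224 library for all 7 members, so leaving it out moves their differences down in any case. Without it and both muscle-rich scramblemiR libraries they ran from −0.35 to −1.31, and 11 genes in all passed, none of them a member. Macrophage genes had a difference below 0 in 13 of 14 (median −0.38), summing to 5279, 1892, 1758 and 4059 in BAT antimiR-224, against 4663, 2692, 5366 and 2845 in BAT scramblemiR. Dendritic cell genes had one below 0 in 7 of 9 (median −0.57), and erythroid genes one above 0 in 5 of 5 (median 2.29). The part of these cells in the members' values was not tested. Of 15 other class II pathway genes 8 had a difference above 0, with a median of 0.02, and Ctss had −0.60.

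With antimiR-452 in BAT the members divided in sign, 2 above 0 and 5 below, and none passed, where 0.0% of 14512 genes were called and 3.87% had an unadjusted p under 0.05. H2-Aa had 1133, 715, 1269 and 1030 in BAT antimiR-452, against 1071, 1086, 1742 and 708 in BAT scramblemiR (difference −0.11, standard error 0.30). H2-Ab1 had 1005, 544, 1117 and 656 in BAT antimiR-452, against 723, 690, 1196 and 434 in BAT scramblemiR (0.16, standard error 0.35). Cd74 had 2156, 1354, 2543 and 1886 in BAT antimiR-452, against 1955, 1915, 3399 and 1196 in BAT scramblemiR (−0.03, standard error 0.34). The groups overlapped for every member, where 1.72% of all genes had every antimiR-452 library above every scramblemiR library and 1.45% every one below.

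H2-Eb1 differed by −0.07, H2-DMa by 0.14 and H2-DMb1 by −0.09. Ciita had 33.4, 22.3, 13.0 and 21.7 in BAT antimiR-452, against 27.9, 41.8, 84.7 and 21.1 in BAT scramblemiR (−0.80, standard error 0.49), with scramblemiR library 3 the highest of the 8. The adjusted p by limma was at least 0.999 for every member. Of all genes 45.2% had a difference above 0 here. Of 13 class I genes 10 had one, with Psmb9, a subunit of the immunoproteasome, at 0.71 and H2-K1 at 0.47, and none passed. Macrophage genes had a difference below 0 in 12 of 14 (median −0.38) and summed to 6745, 1694, 2578 and 2616 in BAT antimiR-452, against 2704 to 5364 in BAT scramblemiR. Erythroid genes had one above 0 in 5 of 5 (median 1.44), and the part of either was not tested.

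Whether the inhibitors acted differently in the tissues was tested as an interaction over 16 libraries each, the effect in WAT minus that in BAT. For antimiR-224 the members' interaction terms were 0.80 for H2-Aa, 0.70 for H2-Ab1, 0.69 for H2-Eb1, 0.88 for H2-DMa, 1.27 for H2-DMb1, 0.85 for Cd74 and 1.37 for Ciita. None passed, with adjusted p-values of 0.617 to 0.644 by limma, where 0.0% of 17045 genes were called. The unadjusted p was 0.0149 for H2-DMb1 and 0.0408 for Ciita. All 7 terms lay above 0, as did 58.9% of all genes. Without the libraries richest in B cell genes, WAT scramblemiR library 2 and BAT antimiR-224 library 1, the terms ran from 1.02 to 1.99. The adjusted p-values by limma then ran from 0.176 to 0.224. The former library was the highest of its group for 4 of 7 members and the latter for 7 of 7. Both groups enter the term with a minus sign, so leaving these libraries out raises it in any case. For antimiR-452 the terms ran from −0.06 for H2-Ab1 to 1.08 for Ciita, with adjusted p-values of 0.866 to 0.989 by limma, where 0.0% of 16964 genes were called. Of the 7 members 6 had a term above 0, as did 53.2% of all genes. As between the scramblemiR groups, the test took the tissues as independent.

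Across the 24 libraries, after each group's mean was subtracted, every member varied with the others. The correlation of a member with the mean of the other members was 0.96 for H2-Aa, 0.95 for H2-Ab1, 0.94 for Cd74, 0.91 for H2-Eb1, 0.89 for H2-DMa, 0.87 for H2-DMb1 and 0.77 for Ciita (Pearson's r of log2 values, 24 libraries). Among 16634 other genes the 5 most like the members' mean were Tnfaip8l2 (r = 0.88), Cotl1 (0.88), Fgd2 (0.87), Fcer1g (0.84) and Coro1a (0.84). Fcer1g encodes a signalling chain of Fc receptors, and Coro1a and Cotl1 encode actin-binding proteins. The points share library, depth and tissue piece, and the r values are descriptions.

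Lists differed in how closely they varied with the members. The median r was 0.53 over 16 macrophage genes, 0.44 over 12 dendritic cell genes, 0.39 over 9 T cell genes and 0.30 over 12 B cell genes. It was 0.29 over 18 other class II pathway genes, 0.20 over 10 class I genes and 0.07 over 16 interferon gamma axis genes, with 0.07 over all genes. The members' mean stood 0.78 above the WAT mean in log2 in antimiR-224 library 4, where the class I list stood 1.15, the interferon gamma axis 1.32 and macrophages 0.84 above it. In WAT antimiR-452 library 2 the B cell list stood 2.51 above its WAT mean while the members stood at −0.13, and in WAT scramblemiR library 2 these values were 2.35 and 0.12. In BAT antimiR-224 library 1 the B cell list stood 3.44 and the members 0.57 above their BAT means.

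**Figure D4:**
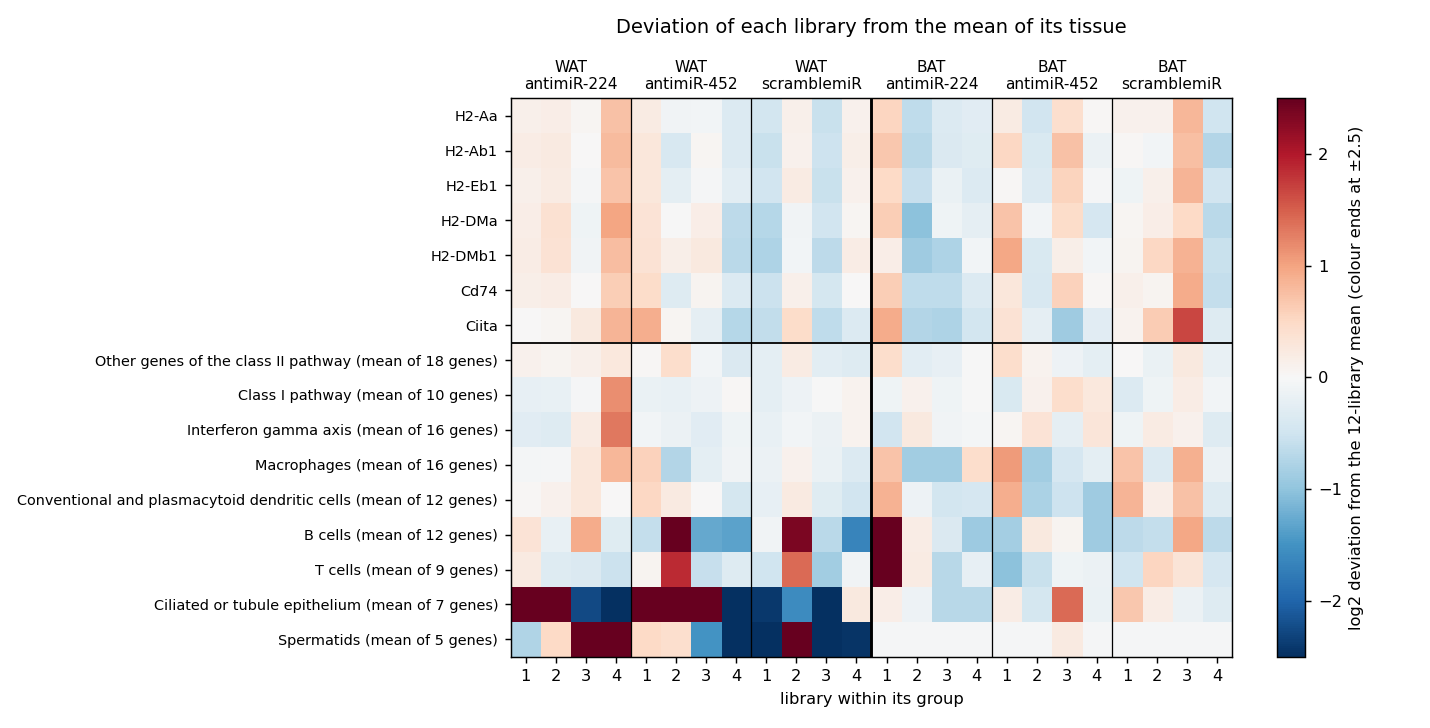
Deviation of each library from the mean of its tissue in log2, for the 7 members (upper rows) and the means of other gene lists (lower rows), with the colour scale ending at 2.5 in either direction. All 7 members are highest of their group in WAT antimiR-224 library 4, WAT antimiR-452 library 1, BAT antimiR-224 library 1 and BAT scramblemiR library 3, and divide between libraries in the other groups; the B cell list peaks in WAT antimiR-452 library 2, WAT scramblemiR library 2 and BAT antimiR-224 library 1.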

How the data were processed

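RNA was selected with oligo-dT and made into directional libraries, per the labels' protocols. There are 4 deposited tables, 1 per inhibitor and tissue. In them the authors give, per the file headers, a mean signal (a normalized count) for each group, a ratio of both means as deposited, a log2 column as deposited, and a p-value raw and adjusted, also as deposited. The authors worked with DESeq 1.10.1, R 2.15.3 and GRCm38.p4, per the submitters' processing notes. Which aligner and counter they used is not given in the sources used here.

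Each printed group mean is the average of 4 read numbers over their size factors, so whole reads per library could be recovered from its digits. Where several solutions remained, the one that rebuilds the deposited p-value was taken, a step chosen after seeing the data. Of 28 pairs of member and inhibitor group, 18 were recovered from the mean alone and 10 with the p. Rebuilt means matched within 5.3e-15, and 99.34% to 99.64% of genes were recovered in the inhibitor groups. On simulated data 0 recovered genes were wrong. Group means as high as those of Cd74 in both WAT inhibitor groups and of H2-Aa in WAT antimiR-224 were not simulated. These values were recovered with the p, and how often such a recovery errs at their level was not tested. No replicate pair agreed within sampling noise. The recovered libraries cannot be tied to sample titles.

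The test was limma (version 3.58.1, R 4.3.3), run with trend and robust variance on the log2 of recovered values plus 1, a scale that understates changes of low genes. Genes of mean at least 10 entered, and an adjusted p under 0.05 was a call. Tissues were scaled together by the median of ratios. Of simulated 4-fold changes, 95% to 100% were called. Of simulated 2-fold changes 70% were called for WAT antimiR-224, 69% for WAT antimiR-452, 77% for BAT antimiR-224, 22% for BAT antimiR-452 and 73% between tissues. The changed genes were drawn from those of mean above 50, and each gene took the spread typical of its mean. RNA of other cells shared by genes of a library was not simulated. Members of lower mean, such as Ciita in the BAT inhibitor comparisons, are not covered by these shares. For single members an exact permutation test over 70 splits was added, whose smallest p is 0.0286. Levels per length used the principal transcript of GENCODE M21.

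The members and gene lists were chosen with earlier results of these data known. Named are the members, genes of the lists that passed (at most 8 by size), and the 5 genes most like the members. Iigp1, Gbp2, Tap1, Ctss, H2-Ob, H2-Oa, Ms4a1, Psmb9 and H2-K1 in the inhibitor comparisons, and Rfx5, Rfxap, Nfya and Nfyb between tissues, were named after their values were seen. So were Zbtb46, Dpp4, Clec10a and Mgl2, for their share of the dendritic cell sums. Alternatives were a pseudocount of 0.5 or of 5, no minimum mean or one of 50, variance not robust, total-read scaling between tissues, and each library left out. Chosen after seeing the data were fits without libraries that stood apart and fits on genes recovered from the mean alone.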

Additional observations from a re-analysis of the deposited data

Results flagged for a closer look

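Of 42 sets of 4 libraries, 1 for each member and group, 2 had a library far from the others. Chance alone gives about 1 in 20. H2-Aa in WAT antimiR-224 library 4 had 13395 normalized counts, against 8472 to 9234 in the other libraries of the group, and the gap to the nearest was 0.845 of the whole range. Ciita in BAT antimiR-224 library 1 had 47.1, against 14.7 to 18.7 in the others, and the gap was 0.879 of the range. Both gaps are above the critical value of Dixon's test for 4 libraries.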

How the results depend on the processing

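No paired analysis was possible because the recovered libraries cannot be tied to the numbers in the sample titles, so the planned fits with a replicate block were not run. Of the members' values, 771 kept their direction and their side of the threshold under an alternative, 4 lost the call (all Ciita between tissues) and 37 changed sign. The members' differences with antimiR-224 in WAT, and its tissue terms, changed sign under none of the alternatives run. Calls between WAT and BAT scramblemiR numbered 7067, and 5913 to 6757 with a library left out. For antimiR-452 in WAT, leaving out a library gave 0 to 543 calls, and for its tissue difference 0 to 71, the highest both without WAT antimiR-452 library 4, against 0 with all libraries. BAT antimiR-224 had 11 calls without the muscle-rich libraries, against 0 with all. With a library left out, the antimiR-452 differences in WAT ran from −0.0245 to 0.216 for H2-Ab1, from −0.0172 to 0.242 for H2-Eb1, from −0.000789 to 0.278 for Cd74 and from −0.0171 to 0.533 for Ciita. The antimiR-224 differences in BAT ran from −0.447 to 0.0616 for H2-Ab1 and from −0.457 to 0.0382 for H2-DMa. The antimiR-452 differences in BAT ran from −0.319 to 0.114 for H2-Aa, from −0.0807 to 0.405 for H2-Ab1, from −0.262 to 0.177 for H2-Eb1, from −0.0841 to 0.321 for H2-DMa, from −0.348 to 0.121 for H2-DMb1 and from −0.271 to 0.231 for Cd74. The antimiR-452 tissue terms ran from −0.305 to 0.182 for H2-Ab1, from −0.0653 to 0.373 for H2-Eb1, from −0.0570 to 0.348 for H2-DMa and from −0.0703 to 0.432 for Cd74. That of H2-Ab1 was 0.148 without the B cell-rich and 0.0509 without the spermatid-rich libraries, and that of H2-DMa was −0.0560 without the muscle-rich ones. The cause was not tested in any of these.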
